A study of Mus musculus with 2 samples.

Results

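The cells described here are named Hopx and Tfap2c stem cells of the dentate gyrus, the hippocampal region in which new granule neurons are made after birth. The name does not hold for each cell, since any 2 of the 5 stem markers below sufficed and some members had UMIs of neither gene. They were picked by their transcripts from single-cell RNA-seq of postnatal day 2 mice, and 135 of 4996 kept cells were members. Kept cells had 500 genes or more, 1000 UMIs or more (unique molecular identifiers, each standing for 1 captured transcript) and no more than 10% mitochondrial UMIs. A member had UMIs of Slc1a3 and Fabp7, radial glial genes, and of at least 2 of 5 stem markers: Tfap2c, Hopx, Thrsp, Frzb and Gpd1. It had UMIs of at most 1 of 3 astrocyte genes (Aldh1l1, Aqp4, Acsbg1) and at most 2 of 6 mitotic genes (Top2a, Mki67, Ube2c, Cdk1, Pbk, Spc25). Foxj1, Pdgfra and Eomes, genes of ependymal cells, oligodendrocyte precursors and intermediate progenitors, were at 0. All these values chose the members, so they are given as a description only.

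The study compared mice that lack the histone demethylase KDM6B in the hGFAP-Cre lineage with control mice, to ask what KDM6B does for hippocampal stem cells. The knockout (KO) library came from mice with floxed Kdm6b alleles (Kdm6bF/F) and the hGFAP-Cre transgene, in which a human GFAP promoter drives Cre recombinase in radial glia, so that their descendants carry the deletion too. The control library came from littermates, whose genotype is labelled WT; whether they carry floxed alleles or Cre is not stated in the labels. Each library pooled 2 animals, dissociated with papain, and was made with the 10x Genomics 3′ assay. With 1 library per genotype there is no replicate, so no test between genotypes is possible. The comparisons are of these 2 libraries, and every 95% interval covers counting error only.

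Radial glia-like stem cells of the dentate gyrus come from embryonic progenitors at the edge of the hippocampal field and settle in the subgranular zone during the first postnatal weeks. There they leave rapid division and enter quiescence, and they can later give rise to intermediate progenitors, granule neurons and astrocytes. Hopx, a homeodomain-only cofactor, marks their lineage before and after birth, and Tfap2c encodes the transcription factor AP-2 gamma. Thrsp, a lipogenesis-linked gene, Frzb, a secreted Wnt antagonist, and Gpd1, glycerol-3-phosphate dehydrogenase, are further markers of these cells. KDM6B removes methyl groups from lysine 27 of histone H3, the mark that Polycomb repressive complex 2 writes through EZH2.

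The members fell apart into cells with a glial profile and a few others. Over 12 pan-neuronal genes, 8 members had at least 54.3 UMIs per 10000, while all others had at most 18.8. Another 2 members, 1 in each library, carried at least 3 endothelial or mural cell markers, among them Cldn5 and Rgs5. None of these 10 cells had a UMI of Tfap2c, and their 12 glial genes summed to 5.62 to 17.2 UMIs per 10000 against medians of 262 (control) and 278 (KO) in the other members. Their sizes differed, from 4909 to 60967 UMIs in the 8 control cells and from 22908 to 33735 in the 2 KO cells. Together the 8 control cells held 40.6% of the control members' UMIs and the 2 KO cells 21.4% of the KO members' UMIs. The data thus went against the label for these 10 cells. Most values are therefore given for the 125 with a glial profile (81 control, 44 KO), a split that was made after the data had been seen. The value over all 135 members stands beside a gene where it ends a 2-fold call. In the plot of neuronal against glial transcripts the 2 kinds of cell lie apart.

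**Figure D1:**
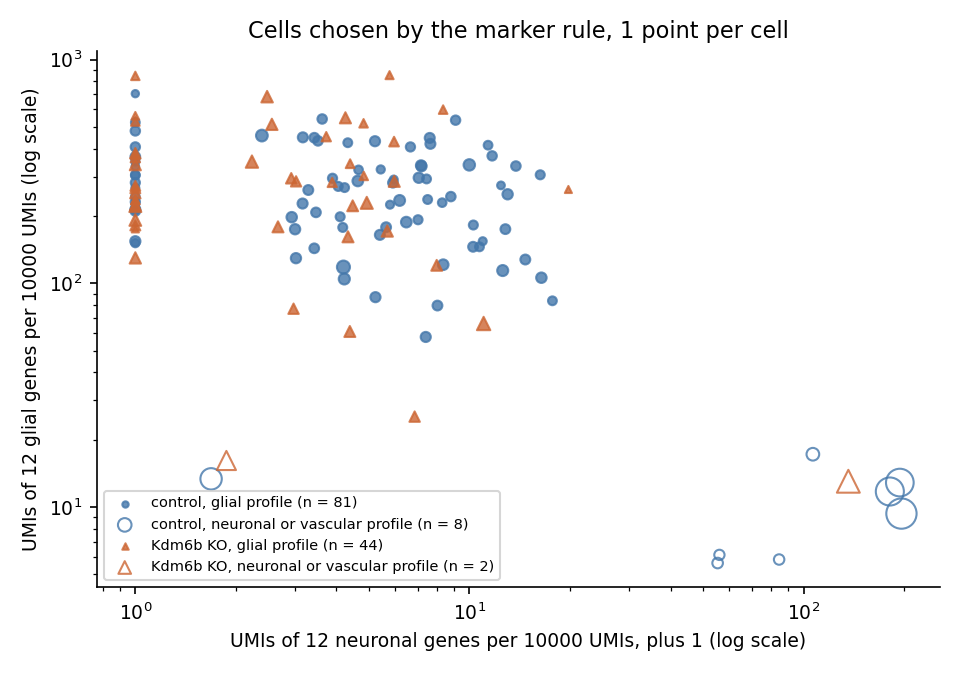
Each point is 1 of the 135 members: the x axis gives UMIs of 12 neuronal genes per 10000 plus 1, the y axis UMIs of 12 glial genes per 10000, both on log scales, and point size grows with the cell's UMI total. The 10 open symbols (8 control, 2 KO) lie at or under 17.2 glial UMIs per 10000, below all filled symbols, which start at 57.6 among control and at 25.4 among KO cells.

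The 125 glial-profile members held 316784 (control) and 208236 (KO) UMIs, with medians of 3914 and 5060 per cell and 1978 and 2289 genes. The median mitochondrial share was 2.89% and 3.86%. All members together held 533526 and 264879 UMIs. No member's barcode was among the 9 found in both libraries, and none was among the barcodes with the highest doublet scores. The sexes differed between the libraries: of the control members 40 had Xist without a Y-linked UMI and 22 the reverse, while in the KO library 44 of 46 had Xist and none had a Y-linked UMI. Values among Xist cells without Y-linked UMIs (36 control and 42 KO glial-profile members) are given beside the main genes.

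Of the defining markers of other cell types, GABAergic neuron, choroid plexus, fibroblast and microglia lists came to at most 2 UMIs per library in the 125 cells, and endothelial markers to 7 and 4 UMIs. Higher sums were found for neuroblast and granule neuron (98 and 57), pyramidal neuron (45 and 49) and intermediate progenitor markers (39 and 42). Mural markers came to 53 and 52 UMIs, of which Rgs5 gave 51 and 45. C1qa, C1qb, Cx3cr1, P2ry12, Gad1, Gad2, Pecam1, Cdh5, Sox10 and Gpr17 were at 0 in both. Ependymal markers differed between the libraries. Their list of 8 summed to 15 UMIs (47.4 CPM, the share of all UMIs in the set on the usual scale) in the control and 45 (216 CPM) in the KO members, although Foxj1 and Tmem212 were at 0 in both. In the KO library 5 of the 44 cells carried at least 3 of these markers, against 0 of 81 in the control. At least 2 were carried by 9 KO cells and 1 control cell. Cells with none of them numbered 26 in the KO and 70 in the control library. Haemoglobin and other erythroid transcripts summed to 44 and 8 UMIs, and oligodendrocyte lineage markers to 85 and 11, nearly all of them Olig1. The part of these transcripts in the results was not tested, and values without the 5 ependymal-marker cells are given beside the first genes. Those values still include the cells with 1 or 2 ependymal markers.

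The share of members among kept cells was 2.94% (89 of 3029, exact Clopper-Pearson 95% interval 2.37 to 3.60) in the control and 2.34% (46 of 1967, 1.72 to 3.11) in the KO library, a ratio of 0.796 (0.545 to 1.15). For the glial-profile members the shares were 2.67% and 2.24%, a ratio of 0.836 (0.566 to 1.22). Both intervals hold 1, so no difference was detectable at this depth. A stricter definition gave a lower ratio. At least 3 of the 5 stem markers were found in 48 control cells (1.58%) and 14 KO cells (0.712%), a ratio of 0.449 (0.229 to 0.828). With every cell thinned to 2000 UMIs before the rule was applied, 2.63% and 1.60% were members, a ratio of 0.610 (0.383 to 0.949). A droplet count gives shares of captured cells, not cell numbers in the tissue.

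Within the 125 cells Thrsp was the most widely found marker, in 79 of 81 control cells (97.5%) and 41 of 44 KO cells (93.2%). Hopx was found in 61 (75.3%) and 31 (70.5%), and Tfap2c in 46 (56.8%) and 24 (54.5%). Hopx and Tfap2c were found together in 35 control and 16 KO cells. The order Thrsp, Hopx, Tfap2c was the same in both libraries, and the shares of each lay close together. The rule chose cells by these markers, so the shares depend on the rule and on one another. Whether the genes are unchanged cannot be read from them. Frzb was in 27 control cells (33.3%, 23.2 to 44.7) and 4 KO cells (9.09%, 2.53 to 21.7), and Gpd1 in 19 (23.5%) and 4 (9.09%). Thus 48 of 81 control cells but 14 of 44 KO cells carried 3 or more markers, and the commonest sets were Tfap2c with Hopx and Thrsp in the control (17 cells) and Hopx with Thrsp in the KO library (15 cells).

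The marker values at equal depth, with cells thinned to 2000 UMIs (77 control and 41 KO cells, the 4 and 3 shallower ones left out), were lower for Thrsp, Hopx and Tfap2c in both libraries. Thrsp was in 81.8% and 80.5%, Hopx in 48.1% and 48.8%, Tfap2c in 42.9% and 39.0%, Frzb in 20.8% and 7.32%, and Gpd1 in 16.9% and 9.76%. In cells with at least 3 endothelial markers (medians of 23344.5 and 20077 UMIs before thinning), which should lack the stem genes, thinned shares were at most 2.75% for Thrsp, Hopx, Tfap2c and Gpd1. Frzb was in 3.32% and 4.13% of them, a level within the interval of its share in thinned KO members (1.54 to 19.9). Before thinning, Hopx was in 11.7% and 18.0% of these endothelial-marker cells. Frzb was then in 28.9% and 25.1% of them, against 33.3% and 9.09% of members. They were thinned from more UMIs than members, so their thinned shares do not give the background of members at full depth. The summed UMIs of these genes, which chose the members, were 371 and 184 for Thrsp (log2 ratio -0.40, and -0.01 over all 135 members), 111 and 80 for Hopx (0.14), 67 and 46 for Tfap2c (0.07) and 38 and 29 for Gpd1 (0.22). Of the 29 KO UMIs of Gpd1, 17 came from 1 cell. In the annotation of GRCm38 these genes lie at chr7:97412938-97417730 (Thrsp, minus strand), chr5:77086988-77115121 (Hopx, minus), chr2:172549593-172558622 (Tfap2c, plus), chr2:80411970-80447625 (Frzb, minus) and chr15:99717515-99725005 (Gpd1, plus).

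**Figure D2:**
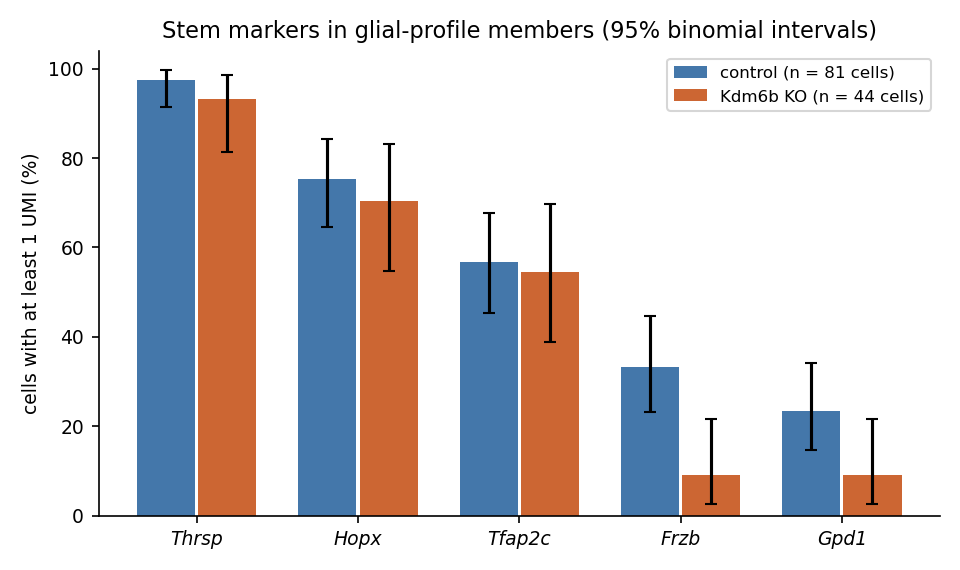
Bars give the percent of glial-profile members with at least 1 UMI of each stem marker in the control (81 cells) and KO (44 cells) library, with exact 95% binomial intervals. Thrsp, Hopx and Tfap2c have similar shares in both libraries, and Frzb stands at 33.3% against 9.09%. Cells were chosen by these markers, so the shares are a description.

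Cells near the threshold of 2 markers were looked at on both sides. Just inside it, 33 control and 30 KO glial-profile members carried exactly 2 markers, and Dbx2 had 24 and 1 UMIs in these cells. Just outside it, among cells with exactly 1 marker, Dbx2 had 19 and 16 UMIs, Hopx 7 and 20, and Tfap2c 2 and 6. These values are given to show the edge of the set.

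Members were next set beside 3 like sets of cells with Slc1a3 and Fabp7 UMIs: 218 with under 2 stem markers, 429 with at least 2 astrocyte genes, and 136 with at least 3 mitotic genes. Cells with a neuronal, endothelial or mural profile were removed from each in the same way. This left 58 control and 59 KO cells, 316 and 105, and 74 and 31, in that order. It set no minimum of glial genes. The lowest glial sums per 10000 were 3.89 (control) and 9.15 (KO) with under 2 markers, and 8.92 in control mitotic-gene cells. These were as low as in the cells set aside among members. In astrocyte-gene cells the lowest were 132 and 137. Since the rule chose cells by expression, the genes that set members apart from cells with under 2 markers are a description, and the 2 libraries are shown side by side. Tesc, which encodes the calcium-binding protein tescalcin, stood at 256 CPM in control members and 25.7 CPM in control cells with under 2 markers. In the KO library it stood at 216 and 5.15 CPM. It was also high in mitotic-gene cells (203 and 156 CPM) and low in astrocyte-gene cells (9.60 and 2.49 CPM).

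Wnt8b, a Wnt ligand of the embryonic cortical hem and hippocampal field, was at 78.9 CPM in control members and 8.57 CPM in cells with under 2 markers, and at 163 and 20.6 CPM in the KO library. The homeobox gene Lhx9 was at 120 against 12.8 CPM and at 43.2 against 0 CPM. Pdlim3, an actin-associated protein gene, was at 202 against 42.8 CPM and at 81.6 against 0 CPM. Gdf10, a ligand of the TGF-beta family, was at 158 against 34.3 CPM and at 120 against 46.4 CPM, and unlike Tesc and Lhx9 it was low in mitotic-gene cells (35.6 and 32.7 CPM). Agt, angiotensinogen, was at 34.7 against 0 and 106 against 10.3 CPM, and astrocyte-gene cells held it too (33.1 and 46.1 CPM). Cells with under 2 markers held few UMIs of these genes in the control and KO library. They had 6 and 1 of Tesc, 2 and 4 of Wnt8b and 3 and 0 of Lhx9. They had 10 and 0 of Pdlim3, 8 and 9 of Gdf10 and 0 and 2 of Agt. The lower bound of the ratio was 1.84 for Lhx9 in the KO library (9 UMIs in members). It was 1.85 for Agt in the control (11 UMIs). The other genes of the 16 that stood most above cells with under 2 markers in both libraries were Ung, Mcm6, Stmn1, Ssb, Dclk1, Dhcr7, Tenm4, Rgs5, Fbl and Glud1. Several were as high in another set. Mitotic-gene cells held the replication genes Ung and Mcm6 as well, and they held Stmn1, a microtubule destabilizer, at 3046 and 3392 CPM against 1575 and 1268 in members, and Ssb at 514 and 588 against 467 and 389. Astrocyte-gene cells held Dhcr7 at 129 and 87.1 against 123 and 76.8 CPM, and Glud1 at 1028 and 905 against 808 and 908. The pericyte-associated gene Rgs5 stood at 161 and 216 CPM in members, and 19 of its 45 KO UMIs came from 1 cell.

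**Figure D3:**
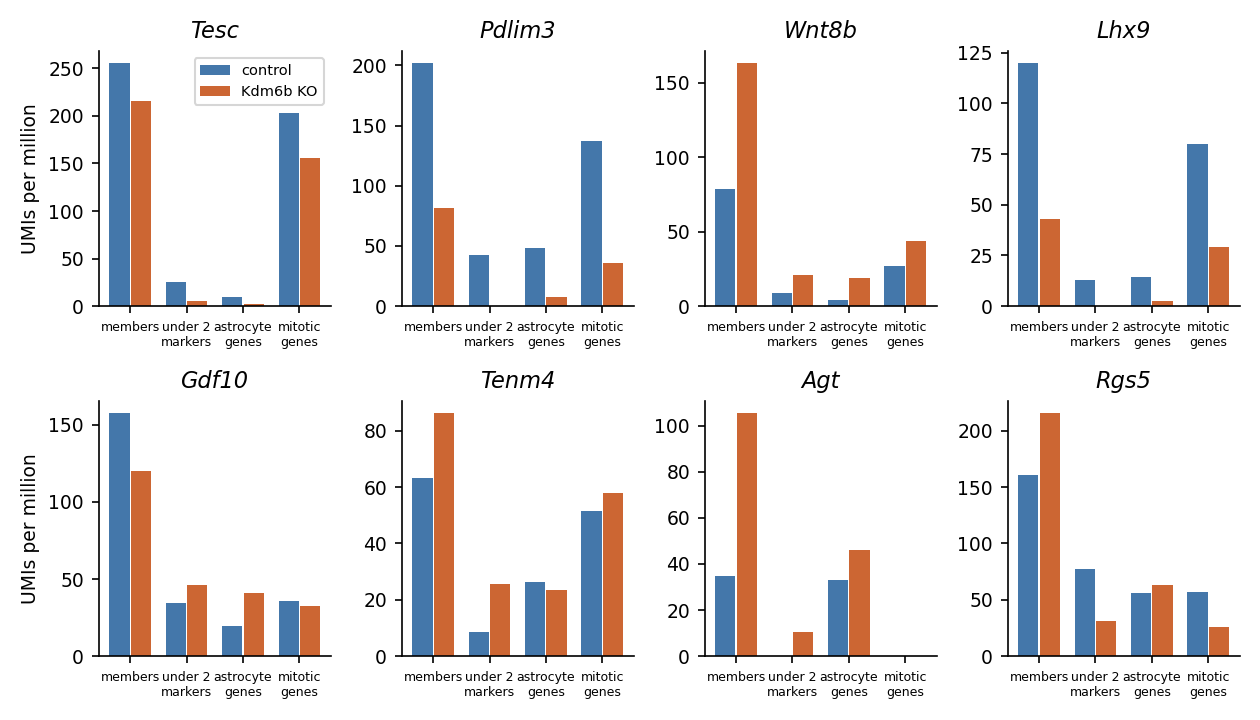
Bars give the level in CPM of 8 genes in glial-profile members and in 3 other sets of Slc1a3 and Fabp7 cells, in the control (blue) and KO (orange) library. All 8 are highest in members in both libraries. For Tesc, Lhx9 and Pdlim3 mitotic-gene cells come next in both.

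The genotype comparison was made on UMIs summed per library, as the log2 ratio of UMI fractions in the KO to those in the control library, after adding 0.5 UMI to both sums. A gene counted as higher or lower when it differed by at least 2-fold and had at least 30 UMIs over both libraries. Among the 125 glial-profile members, 89 of 3314 such genes (2.69%) were higher and 129 (3.89%) lower in the KO library, with a median log2 ratio of -0.06 over all of them. Over all 135 members it was 178 (3.71%) and 289 (6.02%) of 4800. The lower genes of the 135 were led by genes of the neuronal cells: Pcp4, Gap43, Tubb3, Fxyd7, Nefl, Rprml, Lpl, Grp and Stmn2 were all among the 12 with the strongest intervals. In the 125 cells Pcp4 had 3 and 0 UMIs, Fxyd7 2 and 0, Rprml 0 and 0, Grp 0 and 1, and Tubb3 was at -0.37 (28 and 14 UMIs, interval of the ratio 0.370 to 1.49). The other 3 were Dbx2, Arhgdig (13 and 1 UMIs in the 125 cells) and Creg2. The 8 cells were removed for their neuronal genes, which fixes part of that change.

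Kdm6b itself was sparse in members and did not check the labels there. It had 23 UMIs in 15 of 81 control cells and 17 UMIs in 14 of 44 KO cells, a log2 ratio of 0.18 (0.564 to 2.20). In astrocyte-gene cells it had 93 and 40 UMIs (44.6 and 49.8 CPM). In mitotic-gene cells it had 31 UMIs in 23 of 74 control cells and 3 UMIs in 3 of 31 KO cells (55.1 and 10.9 CPM). The 3′ assay reads transcript ends, and which exons are floxed is not given in the sources used here. Among the other enzymes of the mark, Kdm6a had 9 and 8 UMIs, and Ezh2, the Polycomb methyltransferase, had 44 and 26 (-0.14, 0.531 to 1.49). Of 25 Polycomb and H3K27 genes 7 could be tested, and 0 were higher and 1 lower. The lower one was Rbbp7, an X-linked gene of a histone-binding subunit (76 and 20 UMIs, -1.29). It was at -1.26 among Xist cells, but at -0.87 over all 135 members and 0.11 after thinning. The related gene Rbbp4 stood at -0.98 (73 and 24).

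Prm1, the gene of protamine 1, a sperm nuclear protein, gave the greatest difference of the 12 highest genes. It had 0 UMIs in 81 control cells and 805 UMIs in the KO cells, at least 1 in each of 44. Set against 3 control UMIs, its level was at least 408-fold higher. Other KO cells with Slc1a3 and Fabp7 showed the same. All 105 astrocyte-gene cells and all 31 mitotic-gene cells had Prm1 UMIs, against 0 of 316 and 0 of 74 control cells. Among cells with a neuronal profile it was found in 140 of 1068 KO cells (13.1%) and 7 of 1776 control cells (0.394%), and among endothelial-marker cells in 24 of 239 (10.0%) and 0 of 256. Which DNA these UMIs were read from, the Prm1 gene or another sequence carrying part of it, was not tested.

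The next genes above the control in the 125 cells were Clec3b, Ildr2 and Slc4a4. Clec3b, the plasminogen-binding protein tetranectin, had 3 UMIs in 2 of 81 control cells and 28 UMIs in 11 of 44 KO cells (log2 ratio 3.63, ratio 4.39 to 73.0). Slc4a4, the sodium bicarbonate cotransporter, had 12 UMIs in 9 cells and 46 UMIs in 18 cells (2.50, 3.04 to 12.1). Ildr2, an immunoglobulin-like domain receptor, had 10 UMIs in 10 cells and 42 in 14 (2.62, 3.15 to 14.3). For all 3 a minority of KO cells carried the difference, and their per-cell values overlapped with the control. Among Xist cells the log2 ratios were 3.69, 2.33 and 2.20, and without the 5 ependymal-marker cells 3.26, 2.48 and 2.37. With the rule applied to cells thinned to 2000 UMIs (74 control, 29 KO), Clec3b was at 1.11, Ildr2 at 1.35 and Slc4a4 at 2.80.

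These genes were set beside the same contrast in other cells. In astrocyte-gene cells Slc4a4 was already high in both libraries, in 68.7% of 316 control and 72.4% of 105 KO cells, with a log2 ratio of 0.11 (0.932 to 1.24). Clec3b was in 28.5% and 41.0% of those cells. By these shares control members, with Slc4a4 in 11.1% and Clec3b in 2.47%, lay below astrocyte-gene cells. KO members, with 40.9% and 25.0%, lay between. Astrocyte-gene cells were deeper (medians of 6329 and 7312 UMIs), so the shares are not at equal depth. In CPM Slc4a4 was at 37.9 and 221 in members and 315 and 340 in astrocyte-gene cells. Clec3b was at 9.47 and 134 against 73.0 and 138, so KO members lay above control astrocyte-gene cells and near the KO ones. Whether the ratio of members differs from that of astrocyte-gene cells was not tested, though the counting intervals for Slc4a4 do not overlap. Ildr2 was found in 71.9% and 72.8% of endothelial-marker cells, and Clec3b in 18.4% and 20.1%, but these cells held more UMIs than members. With cells thinned to equal depth, Ildr2 was in 19.5% (control) and 17.9% (KO) of endothelial-marker cells. In thinned members it was in 3.90% and 26.8%. Endothelial markers came to 7 and 4 UMIs in the members.

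Clu, the secreted chaperone clusterin, was the best counted of the higher genes after Prm1, with 145 UMIs in 50 control cells and 243 UMIs in 36 KO cells (1.35, 2.07 to 3.15). A single KO cell held 42 of these UMIs. Luzp2 (2.13), Anxa2 (annexin A2, 2.01), Ntm (the adhesion protein neurotrimin, 1.96), Lgals1 (galectin 1, 1.96), Ramp1 (a co-receptor of the calcitonin receptor family, 1.81), Pam (the peptide-amidating enzyme, 1.71) and Igfbp5 (an IGF-binding protein, 1.62) were also higher, each with 22 to 50 KO UMIs. All 8 kept a log2 ratio above 1 among Xist cells. Thinning took Clu to 0.45 and Ramp1 to 0.50 and left the other 6 above 1. Lgals1 was lower in KO cells with under 2 markers (120 and 40 UMIs, -1.31). Rbpms, among the 12 highest in all 135 cells (2.13), had only 2 and 0 UMIs in the 125.

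Dbx2 (chr15:95623563-95655960, minus strand), a homeobox gene of neural progenitors, was the lowest of the 125 cells' genes by this ratio among the 12 named. It had 58 UMIs in 28 of 81 control cells (34.6%) and 3 UMIs in 3 of 44 KO cells (6.82%), which is 183 against 14.4 CPM and a log2 ratio of -3.46 (ratio 0.0158 to 0.242). No KO cell had more than 1 UMI, while a control cell had up to 7. The log2 ratio was -3.05 over all 135 members, -3.68 among Xist cells (31 and 3 UMIs) and -3.78 after thinning. In astrocyte-gene cells Dbx2 was in 45.3% of control and 22.9% of KO cells, a log2 ratio of -1.26 (0.294 to 0.570). In mitotic-gene cells it was -0.95 (0.300 to 0.831). The direction was shared by astrocyte-gene and mitotic-gene cells, and the intervals of members and astrocyte-gene cells do not overlap. In cells with exactly 1 stem marker, just outside the rule, the Dbx2 sums given above lay close together.

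Rbp4, the retinol-binding protein, had 36 UMIs in 25 control cells and 2 UMIs in 2 KO cells (-3.26, 0.00986 to 0.328). It was -3.47 among Xist cells and -0.52 (0.190 to 1.78) in astrocyte-gene cells, where it was sparse (5.38% and 4.76% of cells). Rlbp1, a retinaldehyde-binding protein, had 92 and 19 UMIs (-1.64, 0.181 to 0.519). Both are carriers of the vitamin A pathway, as background. Olig1, an oligodendrocyte lineage transcription factor, had 84 UMIs in 12 control cells, 21 of them in 1 cell, and 10 UMIs in 4 KO cells (-2.40). In astrocyte-gene cells it was found in 73.1% and 45.7% of cells (-1.24, 0.357 to 0.494), so this direction too was shared.

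Id3, an inhibitor of differentiation downstream of BMP signals, and Ndufc2 were among the 12 by their intervals but short of 2-fold. Id3 had 504 UMIs in 69 of 81 control cells and 167 UMIs in 30 of 44 KO cells (-0.99, 0.421 to 0.602). It was at -0.79 after thinning and -0.57 over all 135 members. Astrocyte-gene cells stood at -0.41 (0.713 to 0.792). Ndufc2, a subunit of respiratory complex I, was found in 79 and 40 cells and stood at -0.96. Cavin3 (a caveola protein, -1.75, and -0.94 after thinning), Ptprg (a receptor phosphatase, -1.88, but -0.61 over all 135 members) and Lsm2 (an RNA-processing protein, -1.56, but -0.98 over all 135) were also among the 12, as was Cyp51. So was Frzb (42 and 8 UMIs, -1.72), which belongs to the rule, so that its value is a description. Creg2, with 21 UMIs in 19 control cells and 0 in KO cells, lay under the minimum of 30 UMIs. Its level was at least 4.60-fold lower against 3 UMIs, but only 2 of the 21 UMIs came from the control cells with Xist and without Y-linked UMIs.

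**Figure D4:**
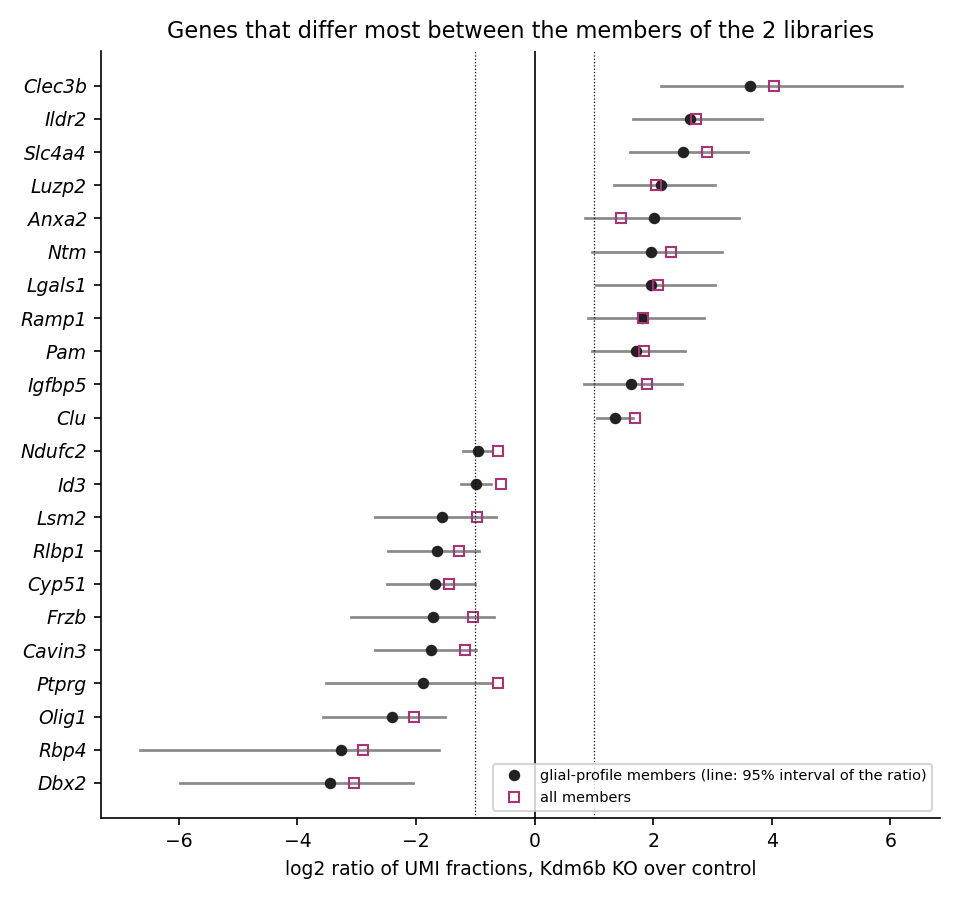
Points give the log2 ratio of UMI fractions, KO over control, in the 125 glial-profile members with the 95% interval of the ratio as a line, and squares the value in all 135. Prm1 is left out because its control sum is 0, and 1 of the 12 genes below the control is not drawn. Dbx2 and Rbp4 lie lowest, at -3.46 and -3.26, and Clec3b highest, at 3.63.

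Gene lists were described by their counts and medians. They were chosen with earlier results known and are no independent evidence. Counts are read against 2.69% higher and 3.89% lower over all genes of the 125 cells, and against the median of -0.06. Among lists with at least 5 tested genes, S phase and then cholesterol synthesis, the pathway that makes sterols from acetyl-CoA, had the lowest medians. Of 17 tested cholesterol genes 0 were higher and 6 lower, with a median of -0.65. Cyp51, the lanosterol demethylase, had 100 UMIs in 51 control cells and 20 UMIs in 14 KO cells (-1.69, 0.178 to 0.495). Mvd, mevalonate decarboxylase, had 36 and 7 UMIs (-1.68, and -0.97 after thinning), Idi1, the isopentenyl isomerase, 92 and 25 (-1.25, but -0.94 over all 135 members), and Msmo1, a sterol oxidase, 126 and 37 (-1.15, and -0.99 over all 135). Fdft1 (squalene synthase, -1.06) and Fdps (farnesyl diphosphate synthase, -1.03, and -0.91 without the 5 ependymal-marker cells) were the others.

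The list was not lower throughout. Hmgcs1, the synthase at the head of the pathway and its most abundant member, had 240 and 151 UMIs (-0.06, 0.776 to 1.18). Srebf2, the transcription factor that drives the pathway, stood at -0.08. The median was -0.51 over all 135 members (0 higher and 4 lower of 18), -0.68 among Xist cells (0 and 5 of 13) and -0.65 after thinning (0 and 4 of 10). A thinned cell held a median of 7 UMIs of the list in control and 4 in KO members. At least 3 UMIs of the list were in 83.1% (72.9 to 90.7) and 80.5% (65.1 to 91.2) of thinned cells, and these intervals overlap. Astrocyte-gene cells had a median of -0.25 (0 and 0 of 23) and mitotic-gene cells of -0.28 (0 and 2 of 19). Cells with under 2 markers had a median of 0.05 over 12 genes. Whether members differ from these sets was not tested. With the rule applied to thinned cells, Cyp51 was at -0.94 and Idi1 at -0.10.

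S phase genes, which license and copy DNA, had a median of -0.88 with 0 higher and 5 lower of 16. Hells, a chromatin remodeller, had 28 and 5 UMIs (-1.77). The other lower genes encode subunits of the MCM helicase: Mcm2 (38 and 8 UMIs, -1.57), Mcm5 (27 and 6, -1.48), Mcm6 (53 and 13, -1.38) and Mcm3 (35 and 9, -1.30). Over all 135 members Mcm6 was at -0.93 and Mcm3 at -0.89, both short of 2-fold. Mcm4, Pcna and Rrm1 lay between -0.46 and -0.68 and Rfc2 at 0.14. Among thinned cells 39 of 77 control (50.6%, 39.0 to 62.2) and 15 of 41 KO cells (36.6%, 22.1 to 53.1) held at least 3 UMIs of the list. These shares overlap in their intervals. The rule admitted up to 2 mitotic genes, and 19 of 81 control and 8 of 44 KO cells had 1 or 2. Over all 135 members the median was -0.54, and with no mitotic gene allowed it was 0.00054. After thinning, Hells was at 0.07, Mcm2 at -0.76, Mcm5 at -0.97, Mcm6 at -1.54 and Mcm3 at -3.51. Only 3 genes of the list then had 30 UMIs, Mcm6 and Mcm3 not among them, with 0 lower and a median of -0.28. Among Xist cells 0 were higher and 2 lower of 9 (median -0.74). Mitotic-gene cells themselves had a median of 0.22 (0 and 0 of 32), and astrocyte-gene cells of -0.50 (0 and 5 of 30). Of the G1 cyclins, Ccnd1 passed 2-fold in the 125 cells (53 and 16 UMIs, -1.09) but not over all 135 (-0.32), after thinning (-0.61), among Xist cells (-0.82) or without ependymal-marker cells (-0.92), and Ccnd2 was at -0.28.

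**Figure D5:**
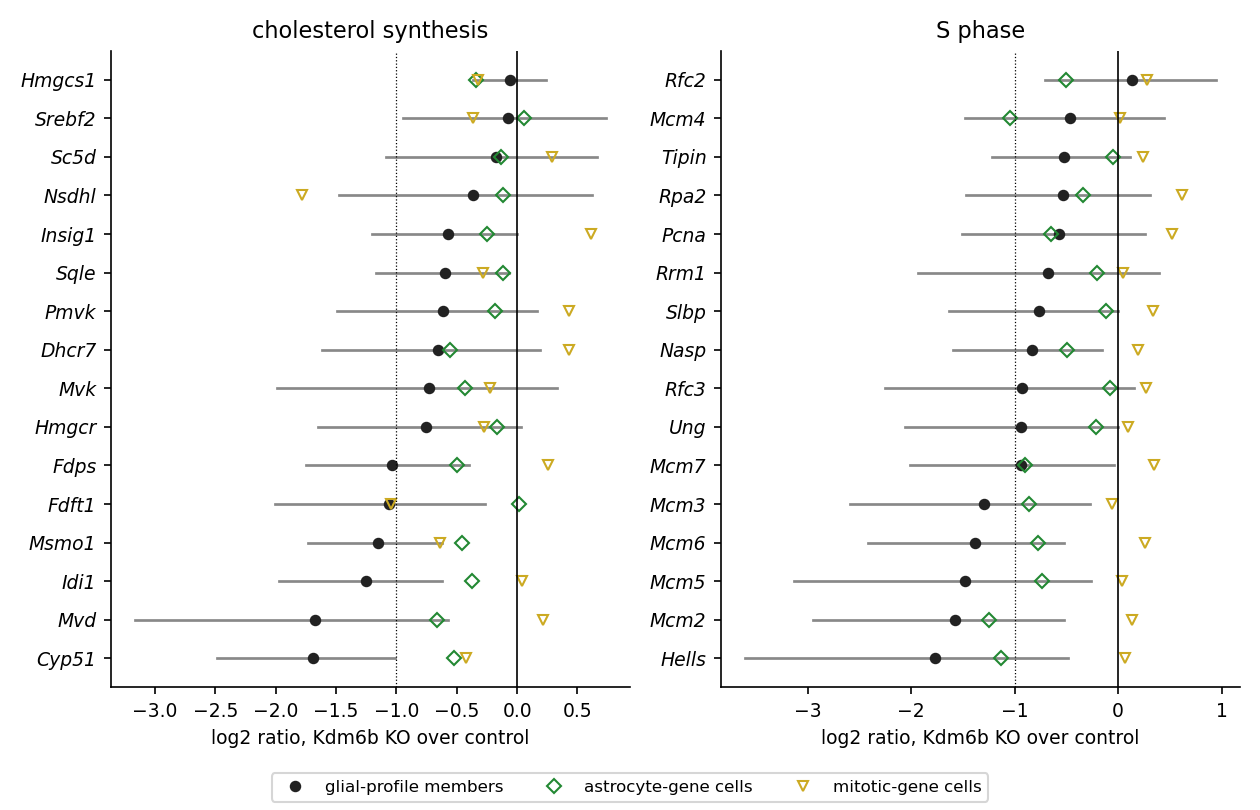
Points give the log2 ratio, KO over control, of tested cholesterol synthesis (left) and S phase (right) genes in glial-profile members, with the 95% interval of the ratio as a line, and the same in astrocyte-gene (diamonds) and mitotic-gene cells (triangles). Members lie left of 0 for the 16 cholesterol genes drawn (1 of the 17 tested, right of 0, is not drawn) and for 15 of 16 S phase genes, and mitotic-gene cells lie near 0 for S phase genes.

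Promoter sequence is shown for the 2 most decreased genes of each of these lists that have a window, so that the letters upstream of genes moving together can be read. Each is the 250 bases before the start in RefSeq (GRCm38.p6), 5′ to 3′ on the gene's strand, with matches in capitals to CCAAT (the CCAAT box), TCACNCCAC (a sterol element) and, for S phase genes, TTTCCCGC or TTTGGCGC (E2F-type motifs), on either strand.
Cyp51, chr5:4104698-4104947, minus strand: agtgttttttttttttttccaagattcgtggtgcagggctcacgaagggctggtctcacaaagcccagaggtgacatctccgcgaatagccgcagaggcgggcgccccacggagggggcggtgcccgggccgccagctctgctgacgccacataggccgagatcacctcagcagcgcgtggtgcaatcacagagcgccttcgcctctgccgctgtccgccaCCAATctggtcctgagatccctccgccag
Mvd, chr8:122443423-122443672, minus strand: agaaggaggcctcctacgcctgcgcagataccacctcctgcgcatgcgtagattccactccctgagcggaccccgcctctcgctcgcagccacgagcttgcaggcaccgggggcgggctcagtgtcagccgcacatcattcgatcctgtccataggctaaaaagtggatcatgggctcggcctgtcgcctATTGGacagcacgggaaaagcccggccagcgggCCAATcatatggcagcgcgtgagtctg
Hells, chr19:38930740-38930989, plus strand: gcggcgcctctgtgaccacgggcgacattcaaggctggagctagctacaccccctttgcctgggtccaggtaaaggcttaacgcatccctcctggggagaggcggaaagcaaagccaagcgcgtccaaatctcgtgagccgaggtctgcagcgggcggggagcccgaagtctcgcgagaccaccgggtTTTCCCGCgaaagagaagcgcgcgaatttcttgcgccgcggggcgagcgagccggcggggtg
Mcm2, chr6:88898781-88899030, minus strand: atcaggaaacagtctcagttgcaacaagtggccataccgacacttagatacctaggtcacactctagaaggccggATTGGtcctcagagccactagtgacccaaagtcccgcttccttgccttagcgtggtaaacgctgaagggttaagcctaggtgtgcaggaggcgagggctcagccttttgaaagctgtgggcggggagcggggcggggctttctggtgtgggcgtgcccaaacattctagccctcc

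The Cyp51 window holds CCAAT at -29 to -25 from the start, and Mvd holds it at -27 to -23 and, read on the other strand as ATTGG, at -60 to -56. Hells holds TTTCCCGC at -62 to -55, and Mcm2 holds ATTGG at -175 to -171. Over windows of 300 bases, which add 50 bases after the start, CCAAT or its complement was in 37.4% of 32851 windows, TCACNCCAC in 1.24%, TTTCCCGC in 1.07% and TTTGGCGC in 0.514%. Of 23 cholesterol genes 16 had a window, and all 16 held a CCAAT match in at least 1 window, including the 4 of the 6 lower genes that had one. Counted by window, as in the share above, it was 16 of 19. TCACNCCAC was in 1 of them, Hmgcs1. All 5 lower S phase genes had a window: 4 held CCAAT, 2 TTTCCCGC and 3 TTTGGCGC. A match is a description of letters, not a bound site.

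Of 19 tested stem cell regulators 0 were higher and 0 lower (median 0.25). Tfap2c and Hopx, which belong to the rule, are among them, and without both it was 0 and 0 of 17 (median 0.34). Sox2 was at 0.38 (68 and 58 UMIs), Sox9 at 0.52, and the nuclear factors Nfia, Nfib and Nfix at 0.58, 0.13 and 0.23. Id4, an inhibitor of bHLH factors linked to quiescence, had 37 and 46 UMIs (0.92). Of 22 genes of radial glial body and fibre, 1 was higher (Clu) and 0 lower (median 0.16). Without Slc1a3 and Fabp7, which every member had to carry, it was 1 and 0 of 20 (median 0.21). Gfap, the intermediate filament of radial and astrocytic fibres, had 256 UMIs in 63 control cells and 258 in 38 KO cells (0.62, 1.28 to 1.83), and Apoe 1313 and 1353 UMIs (0.65). Over all 135 members the medians of both lists were 0.54 and 0.50, with 2 and 4 higher.

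Among signalling pathways, 1 of 10 Notch genes was higher, the receptor Notch2, with 30 UMIs in 20 control cells and 52 in 24 KO cells (1.39, 1.65 to 4.28). Its effectors Hes5 (494 and 296 UMIs, -0.13) and Hes1 (0.17) had intervals that hold 1. Notch2 was higher in cells with under 2 markers too (11 and 70 UMIs, 2.88) and in astrocyte-gene cells (93 and 113, 1.65). Of 6 BMP genes 0 passed 2-fold in either direction (median -0.42), with Id1 at -0.43 and Id2 at -0.42 beside Id3. Of 9 Wnt genes 2 were higher and 1 lower: the ligand Wnt8b (25 and 34 UMIs, 1.04, 1.20 to 3.62), Nkd1, an inhibitor (16 and 24, 1.18), and Frzb. Frzb belongs to the rule, and without it 2 were higher and 0 lower of 8. Wnt8b was at 0.55 among Xist cells.

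Of 13 homeobox and patterning genes, Dbx2 and Lhx9 (38 and 9 UMIs, -1.41) were lower and 0 higher, with a median of -0.15. Hopx is in this list too, and without it the median was -0.22 over 12 genes. Lhx9 was at -0.79 among Xist cells. Lhx2 (-0.41) and Emx2 (-0.73), which pattern the medial cortex, were short of 2-fold. Pdlim3, which is in none of the lists, stood at -1.28 in members (-0.87 over all 135), -2.58 in astrocyte-gene cells (100 and 6 UMIs) and -1.86 in mitotic-gene cells (77 and 10).

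Astrocyte maturation genes had 3 higher and 1 lower of 17 (median 0.13). Slc4a4, Agt (11 and 22 UMIs, 1.57) and Aqp4, the water channel (13 and 20, 1.21), were higher, and Acsbg1, a fatty acyl-CoA synthetase (51 and 12, -1.44), was lower. Aqp4 and Acsbg1 belong to the rule, which allowed 1 of 3 such genes per cell, so their values are a description. The abundant Slc1a2 (-0.01), Ndrg2 (0.06) and Sparcl1 (-0.04) did not differ beyond counting error. Among Xist cells Agt was at 0.46 and Aqp4 at 0.45, and after thinning Aqp4 was at -0.10. Of 13 extracellular matrix genes Sparc, a secreted matrix glycoprotein (137 and 190 UMIs, 1.08), and Sdc4 (1.06) were higher, and Col9a3 (-1.21) was lower. Sdc4 was at 0.55 without the 5 ependymal-marker cells, and Col9a3 at -0.80 over all 135 members and -0.47 after thinning. Lipogenic genes split, with Fads2 higher (1.42) and Elovl6 lower (-1.48) of 8.

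Neuronal differentiation genes illustrate how far a few cells carried the sums. Over all 135 members 1 was higher and 15 lower of 27 (median -1.09). In the 125 cells 1 was higher and 2 lower of 16 (median -0.10): Mfap4, an intermediate progenitor marker (24 and 36 UMIs, 1.18), Nrn1 (-1.31, and -0.85 after thinning) and Stmn3 (-1.26, and 0.07 after thinning). Prox1, the granule cell fate gene, had 34 and 20 UMIs (-0.15) and Neurog2 14 and 6. Immediate early and dissociation genes had 0 higher and 0 lower of 20 (median 0.28), with Fos at 0.24, Jund at 0.61 and Egr1 at 0.58. Glycolysis genes (0 and 0 of 11, -0.23, with Ldha at -0.82) and metallothionein and redox genes (0 and 0 of 13, 0.10, with Mt3 at 0.91) had no gene past 2-fold. Interferon, Hedgehog, G2 and M phase and oligodendrocyte lists had 1 to 4 tested genes each, too few to describe beyond Olig1.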

How the data were processed

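The UMI counts per gene and barcode were deposited by the authors as raw whole numbers for 31053 genes; Cell Ranger 3.0.2, Seurat 3 and mm10 come from the submitters' processing notes, which give them no role. The members, gene lists and tests were chosen with earlier results of these data known. Counts were summed per library over members, and log2 ratios of UMI fractions (0.5 UMI added) were given exact conditional binomial 95% intervals, with exact Clopper-Pearson intervals for shares (Python 3.11.15, scipy 1.17.1). These cover counting error only. The named genes are the 12 higher and 12 lower genes whose interval bound nearest to 1 lies farthest from it, without mitochondrial, ribosomal protein, haemoglobin, sex-linked and predicted genes; up to 4 best-counted genes of each list and any past 2-fold; the 16 genes that most set members apart; and genes fixed by name. Only some are printed, and a few that the rule names are not reported here. Scrublet (scanpy 1.11.5) with its default cut called 11 control (0.309%) and 18 KO barcodes (0.785%) doublets, too few in the control library, so no cell was removed as a doublet; removing the highest-scoring 0.8% per 1000 barcodes removed no member. The kept cells held 1000 to 77194 UMIs. Alternatives used edgeR 4.0.16 (TMM) and DESeq2 1.42.0 (size factors) scaling only. The scripts were tested on simulated counts.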

Additional observations from a re-analysis of the deposited data

Results flagged for a closer look

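Lgals1, galectin 1, moved in opposite directions in 2 sets of cells. In the 125 glial-profile members it had 13 control and 34 KO UMIs (log2 ratio 1.96). In cells with at least 3 mitotic genes, without those of a neuronal, endothelial or mural profile, it had 63 and 15 UMIs (-1.01). The difference between the sets was not tested, since each genotype has 1 library.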

How the results depend on the processing

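No paired analysis was possible because each genotype has 1 library. Planned settings numbered 17, and 5 that leave out non-glial or other-type cells were chosen after seeing the data. The cause of the changes was not tested unless a setting's fewer cells or genes give it. The log2 ratio of the share of members was -0.33 and moved beyond its counting interval only with at least 3 stem markers required (-1.15). Over all 135 members 178 genes were higher and 289 lower. Fewer were higher and lower with at least 3 stem markers (34 and 93), no mitotic gene (105 and 127), cells thinned to 2000 UMIs, with or without the non-glial cells (28 and 61), only Xist cells without Y-linked UMIs (116 and 146), a minimum of 100 UMIs (23 and 58), in the 125 glial-profile cells (89 and 129), without the 5 ependymal-marker cells as well (91 and 116) and among their Xist cells (85 and 77). Weighting the 125 cells alike gave 150 lower genes, and a stricter filter on barcodes 441. With no minimum 2811 and 1782 passed, and at 1.5-fold 578 and 776. Of genes past 2-fold, 38.1% were higher over all 135 members and 52.5% among the Xist cells of the 125. Scaling by TMM, median of ratios, or totals without mitochondrial and ribosomal UMIs moved the median of all genes by less than 0.02 and reversed none of 197 named genes.

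Of 399 list medians recomputed over 19 lists, 344 stayed within their interval, 44 moved and 11 changed sign. Notch was at -0.34 with at least 3 stem markers, and S phase at -1.01 with that rule and 0.00054 with no mitotic gene. Neuronal differentiation was at -2.67 under the stricter filter, -0.17 with at least 3 and -0.29 with at least 1 stem marker, -0.31 with no mitotic gene, 0.055 thinned with or without the non-glial cells, and -0.10 in the 125 cells. It was -0.15 there without ependymal-marker cells, -0.18 in Xist cells and -0.059 with cells weighted alike. Polycomb was at -1.19 with at least 3 stem markers, -0.84 in Xist cells of the 125 and -0.83 at a minimum of 100 UMIs. Interferon was at 0.85 with at least 3 stem markers and 0.78 thinned with or without the non-glial cells, and extracellular matrix at -0.11 in Xist cells of the 125.

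Single genes that changed sign against the 135 members are given by setting. Thinned: Aqp4 -0.10, Atf3 -0.29, Bst2 2.94, Hells 0.071, Lpl 2.94, Stmn2 0.27 and Stmn3 0.071, with or without the non-glial cells. Atf3 was at -0.16 with no astrocyte gene. With no mitotic gene Bst2 was at 2.22 and Rbpms at -0.95, and Bst2 was at 2.00 in Xist cells. In the 125 cells Bst2 was at 2.19, Grp at 2.19, Igfbpl1 at 0.070 and Rbpms at -1.72, and without ependymal-marker cells these were 2.37, 2.37, 0.12 and -1.54, with Zfp36 at -0.18. In Xist cells of the 125 Bst2 was at 1.07, Grp at 1.07, Dcx at 1.81, Rbpms at -2.10 and Tubb3 at 0.10. With those 125 weighted alike Bst2 was at 2.35, Grp at 2.81, Igfbpl1 at 0.22, Neurod6 at 0.86 and Rbpms at -1.77, and with all 135 weighted alike Grp was at 0.095. With the KO library thinned to the control depth Col4a2 was at -0.50 and Rbpms at -3.32. With at least 3 stem markers Mfap4 was at -0.89, Mllt11 at 0.057, Nefl at 0.088, Nes at -1.01 and Zfp36 at -0.27, and with at least 1 Pcp4 was at 0.47. Of these, Bst2, Grp, Lpl, Rbpms and Pcp4 had at most 3 UMIs per library in the 125 cells.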
